A study of Homo sapiens with 24 samples.

Results

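The laminin chains are the subunits of the laminins, the cross-shaped glycoproteins on which a basement membrane is built. The genes described here were taken from a list of 9 laminin genes, and each was read from the transcript cluster that carries its symbol alone. Of the 9 listed genes 8 were measured, among 18417 genes on the arrays: the α chain genes LAMA1, LAMA2, LAMA4 and LAMA5, the β chain genes LAMB1, LAMB2 and LAMB3, and the γ chain gene LAMC1. The remaining listed gene matched no transcript cluster in the annotation used here and was not analysed here. Each of the 8 had 1 cluster, so no choice between clusters was made, and a further pair of laminin genes on the arrays, LAMB4 and LAMC3, was read the same way.

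Total RNA was profiled from 4 human non-small cell lung cancer (NSCLC) lines with mutant K-ras that stably expressed an shRNA to PKCδ (δ193) or a scrambled shRNA (δscr). PKCδ is a serine/threonine kinase encoded by PRKCD. H2009 and H441 need K-ras for their survival and are called K-ras dependent, whereas A549 and H460 are called K-ras independent, and the 8 groups were δ193 and δscr cells of H2009, of H441, of A549 and of H460. Each group had 3 arrays, 24 in all, which the methods call biological replicates. All groups carried a lentiviral shRNA vector and were kept in puromycin, and depletion of PKCδ rested on 1 shRNA sequence on these arrays. The p-values measure the spread between these arrays, and whether the replicates came from separate transductions is not given in the sources used here.

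Each laminin is a heterotrimer of 1 α, 1 β and 1 γ chain, joined along a coiled coil inside the cell and secreted as a unit. The short arms polymerize into the sheet of the basement membrane, and the end of the α chain binds integrins, dystroglycan and other receptors on the cell surface. The trimer is named by its chains, so that laminin-511 holds α5, β1 and γ1. The α5 chain predominates in adult epithelial basement membranes, those of the lung included, and the α1 chain is largely embryonic. The α2 chain is known from muscle and nerve and the α4 chain from blood vessels. The β3 chain is part of the laminin that anchors epithelial cells at hemidesmosomes.

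PRKCD was lower with δ193 in each line, with log2 fold changes between -2.40 and -1.26, and no δ193 array reached a δscr array of its line. KRT8 and KRT18, keratins of simple epithelia, had group means between 11.24 and 12.55 in all 8 groups, while PTPRC, which marks blood cells, lay between 2.66 and 2.79. Other epithelial markers were less even between the lines. EPCAM, an adhesion protein of epithelial cells, averaged 11.20 in H2009 δscr cells, 5.89 in H441 cells, 4.71 in A549 cells and 5.45 in H460 cells. H441 arrays varied most within groups, with a residual variance 2.44 times the median for the remaining lines. The values are on a log2 scale after RMA, on which the median of the gene means was 5.79. Levels of different genes were not set against each other, because probes differ in their response.

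LAMA4 and LAMB2 fell in more than 1 line. LAMB3 had the only match to the motif TGANTCA among the listed chains with a start region available. The start regions of these 3 chain genes are therefore given. They are the 250 bases before the annotated start, in RefSeq coordinates of GRCh38.p14, 5′ to 3′ on the strand of the gene, which was the minus strand for all 3, and capitals mark motif matches. The motifs were TGANTCA, bound by AP-1 factors that phorbol ester and PKC signaling are known to activate, and GGGCGG, the GC box bound by SP1. Both strands were searched, matches of one motif that overlap were each counted, and no TGANTCA match overlapped a GC box. The window of LAMA4 is chr6:112254568-112254817, that of LAMB2 is chr3:49133051-49133300 and that of the third LAMB3 start is chr1:209651375-209651624.
LAMA4: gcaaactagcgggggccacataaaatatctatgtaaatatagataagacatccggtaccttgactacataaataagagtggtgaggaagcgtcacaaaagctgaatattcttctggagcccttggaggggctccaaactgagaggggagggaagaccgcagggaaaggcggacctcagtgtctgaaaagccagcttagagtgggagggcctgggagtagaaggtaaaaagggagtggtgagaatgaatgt
LAMB2: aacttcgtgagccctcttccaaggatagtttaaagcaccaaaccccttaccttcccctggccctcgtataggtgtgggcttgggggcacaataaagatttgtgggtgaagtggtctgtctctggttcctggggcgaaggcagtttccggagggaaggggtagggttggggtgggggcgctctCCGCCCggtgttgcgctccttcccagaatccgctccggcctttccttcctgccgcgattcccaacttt
LAMB3: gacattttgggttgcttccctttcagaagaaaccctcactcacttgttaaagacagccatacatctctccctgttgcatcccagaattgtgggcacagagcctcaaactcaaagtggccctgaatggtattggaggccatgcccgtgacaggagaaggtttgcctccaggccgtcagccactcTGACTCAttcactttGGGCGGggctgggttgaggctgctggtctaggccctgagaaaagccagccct
Of the 8 measured chains 7 had an entry, with 9 start regions, and LAMA1 had none. The LAMA4 window had no match to either motif and a GC content of 48.4%, against a median of 58.0% over all 35116 start regions. The LAMB2 window held 1 GC box at 58.4% GC. The third LAMB3 window held 1 TGANTCA match and 1 GC box, and the other LAMB3 starts held 1 GC box and no TGANTCA match. TGANTCA occurred in 6.6% and GGGCGG in 42.6% of all windows. The GC box was matched 5 times at LAMA5, 4 times at LAMB1 and 3 times at LAMC1, and not at LAMA2.

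To see which chains each line expressed before depletion of PKCδ, the δscr groups were compared in pairs. A chain was called different at an adjusted p under 0.05 (limma, Benjamini-Hochberg over all 18417 genes) and a log2 difference of at least 0.32, the fold minimum that the study's methods set. H441 cells had the highest δscr mean of 6 of the 8 chains, and A549 cells had the lowest of 5. H2009 cells differed from H441 cells in 8 of 8 chains, all of them lower in H2009. Of all genes 49.3% were called in either direction, 4453 of them lower and 4634 higher in H2009. H441 cells were above A549 cells in all 8, where 48.4% of all genes were called, 4155 higher and 4753 lower in H441. The pair H2009 and A549 gave 6 of 8 (4 higher and 2 lower in H2009, with 41.4% of all genes called), and H2009 and H460 gave 6 of 8 (1 higher and 5 lower in H2009, with 35.5%). H441 and H460 differed in 7 of 8 (5 higher and 2 lower in H441, with 45.4%). A549 and H460 differed in 5 of 8, all lower in A549. For that pair 38.9% of all genes were called, 3788 lower and 3385 higher in A549. Between 35.5% and 49.3% of all genes thus passed the same rule, and 40 of the 48 chain and pair tests did.

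LAMA1 had the widest span of δscr means. It read 5.50, 5.51 and 5.36 on the δscr arrays of H2009, 6.80, 6.70 and 6.97 on those of H441, 4.07, 4.19 and 4.0 on those of A549 and 7.34, 7.33 and 7.34 on those of H460. The lines did not overlap, and A549 lay 3.25 below H460 on the log2 scale (adjusted p = 1.49e-18). Since 2 of the 3 A549 arrays did not exceed the floor set by olfactory receptor genes, no fold is given. All 6 pairs of lines were called for this chain, in the order H460, H441, H2009 and A549 from high to low.

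LAMA4 was higher in H441 and H460 than in the other lines. It read 3.79, 3.71 and 3.64 on the δscr arrays of H2009, 4.90, 4.88 and 5.07 on those of H441, 3.80, 3.68 and 3.76 on those of A549 and 5.60, 5.36 and 5.70 on those of H460. H2009 lay 1.84 below H460 (adjusted p = 9.42e-13), and H441 minus H460 was -0.60 (adjusted p = 3.87e-05). The values of H2009 and A549 were at the floor. H2009 and A549 overlapped and differed by -0.03 (adjusted p = 0.838), so that no order was set between them.

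LAMA2 had its highest δscr mean in H441 (5.60 ± 0.12, SD, n = 3 in this and all groups below) and its lowest in A549 (3.98 ± 0.14, near the floor), a difference of 1.63. H2009 and H460 lay between and were not told apart, with a difference of -0.03 (adjusted p = 0.865). LAMA5, the α chain of most adult epithelia, averaged 7.11 ± 0.10 in H2009 cells, 8.59 ± 0.12 in H441 cells, 7.52 ± 0.23 in A549 cells and 7.55 ± 0.07 in H460 cells. H441 stood above each of the other lines, by 1.48 over H2009, and A549 and H460 differed by -0.03 (adjusted p = 0.875). The call that H2009 was below A549 (-0.41, adjusted p = 0.0072) was lost without A549 δscr replicate 2 (-0.32, adjusted p = 0.0582).

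The β1 chain, which most trimers contain, was the least variable. LAMB1 averaged 9.69 ± 0.03 in H2009 cells, 10.16 ± 0.07 in H441 cells, 9.51 ± 0.15 in A549 cells and 9.83 ± 0.03 in H460 cells, a span of 0.65 or 1.56-fold. Only the 3 pairs with H441 were called, and that with H460 (0.34, adjusted p = 0.00254) fell below the fold minimum without H441 δscr replicate 1 (0.29). LAMB2, the β chain of synaptic and kidney glomerular laminins, averaged 6.48 ± 0.18 in H2009 cells, 8.46 ± 0.08 in H441 cells, 7.22 ± 0.13 in A549 cells and 7.39 ± 0.04 in H460 cells. H2009 lay 3.96-fold below H441 (-1.99, adjusted p = 2.71e-12), while A549 and H460 differed by -0.16 (adjusted p = 0.302). LAMB3 averaged 8.09 ± 0.05 in H2009 cells, 8.61 ± 0.11 in H441 cells, 6.13 ± 0.19 in A549 cells and 7.26 ± 0.05 in H460 cells. It was the chain with the second largest span, 2.48 between H441 and A549 or 5.56-fold. All 6 pairs were called for LAMB3, but the difference of -0.51 between H2009 and H441 (adjusted p = 0.0244) was lost in 3 of the 24 fits that left out 1 array, with adjusted p up to 0.0826.

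LAMC1 encodes γ1, the γ chain of most laminins. It averaged 8.94 ± 0.15 in H2009 cells, 9.80 ± 0.11 in H441 cells, 8.41 ± 0.11 in A549 cells and 9.53 ± 0.05 in H460 cells. The difference between H441 and H460 was 0.27 (adjusted p = 0.027), under the fold minimum, and the other 5 pairs were called. It passed the minimum with quantile normalization repeated (0.51, adjusted p = 0.000264) and without H441 δscr replicate 3 (0.34, adjusted p = 0.0156). A549 therefore had the lowest δscr mean of LAMA1, LAMA2, LAMB1, LAMB3 and LAMC1, and H2009 the lowest of LAMA4, LAMA5 and LAMB2, but H2009 and A549 were not told apart for LAMA4 and LAMB1.

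**Figure D1:**
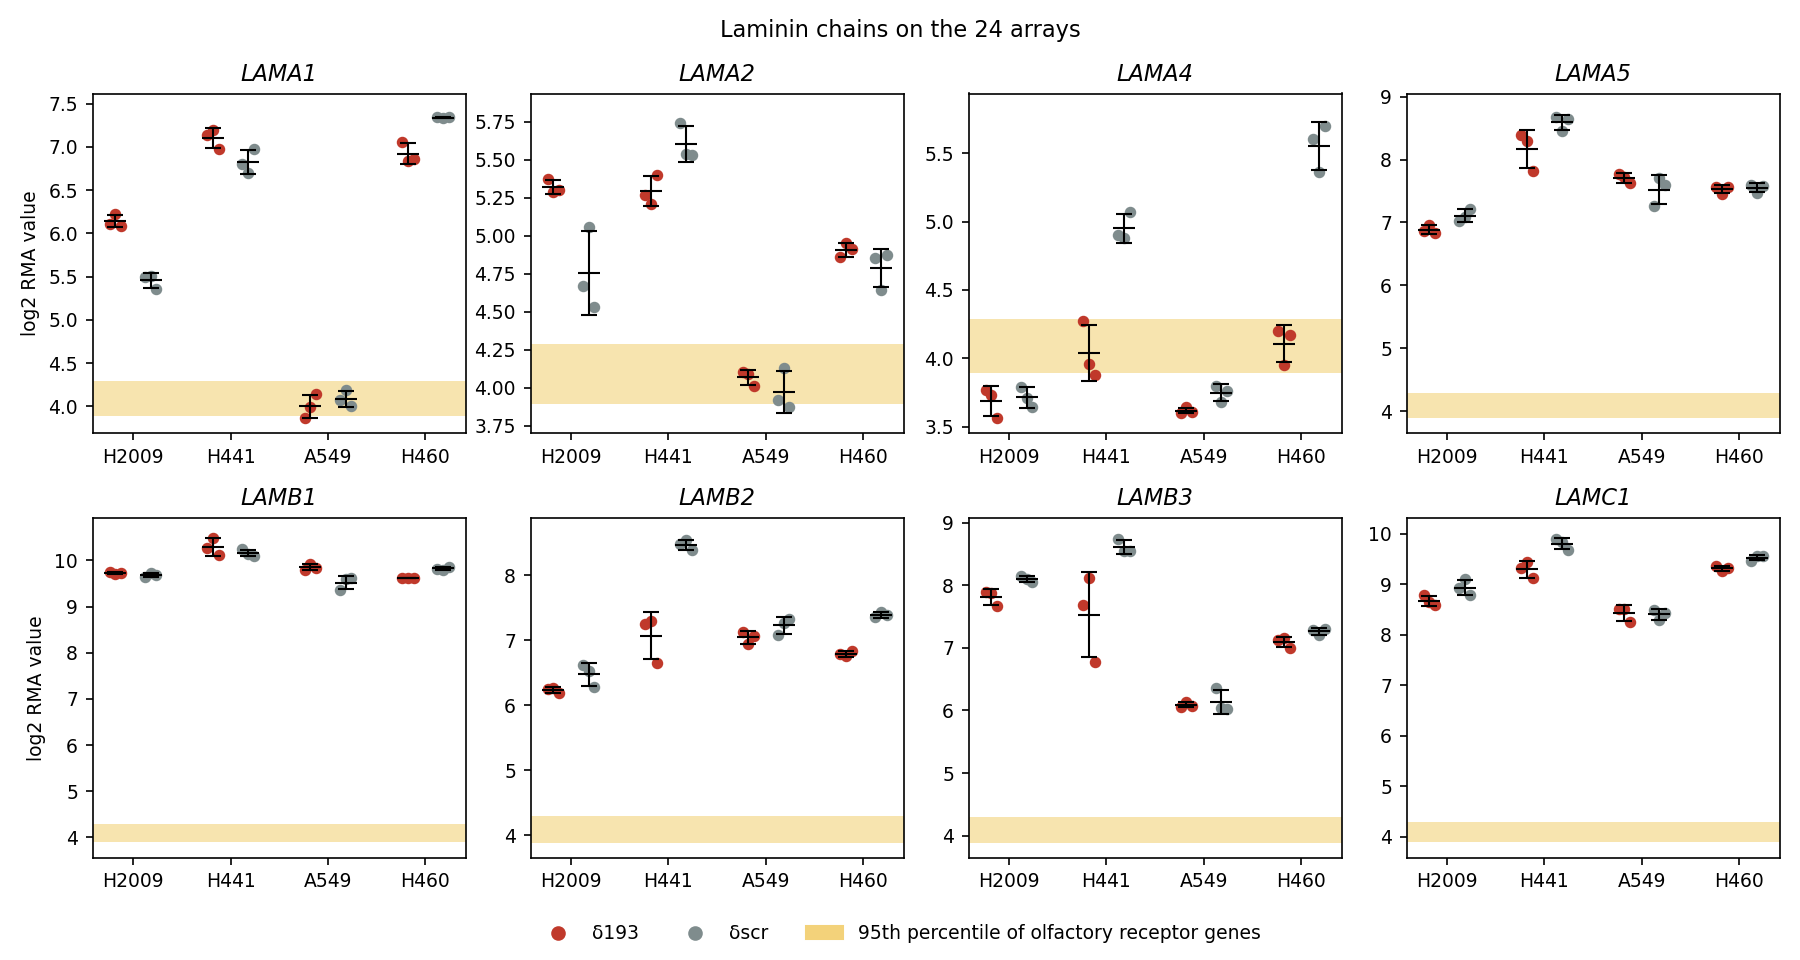
Log2 RMA values (vertical axis) of each laminin chain on every array, for δ193 (red, left) and δscr (grey, right) cells of each line (horizontal axis). Bars are mean ± SD of 3 arrays, and the yellow band spans the 95th percentiles of 341 olfactory receptor genes on the 24 arrays (3.89 to 4.29). LAMA4 lies above the band in δscr cells of H441 and H460, and LAMA1 and LAMA2 lie within or near it in A549 cells.

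The arrays give no detection call, so olfactory receptor genes, most of which are silent outside the nose, were used as a floor. A chain counted as above it where all 3 arrays of a group exceeded the 95th percentile of 341 such genes on the same array, a level between 3.89 and 4.29. LAMA5, LAMB1, LAMB2, LAMB3 and LAMC1 were above the floor in all 8 groups, as was LAMC3 from outside the list, and LAMB4 in none. In A549, LAMA1 and LAMA2 exceeded it on 0 of 3 δ193 arrays and 1 of 3 δscr arrays each. LAMA4 exceeded it on no array of H2009 or A549.

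The 4 measured α chains, β1 or β2, and γ1 make 8 combinations. Trimers with the α chain of the listed gene that was not measured, or with β3 or γ3, were not scored. All 8 had every chain above the floor in δscr cells of H441 and of H460. In H2009 δscr cells 6 did, without laminin-411 and laminin-421. In A549 δscr cells 2 of these 8 combinations did, laminin-511 and laminin-521. The 4 δscr groups thus held 24 of 32. With δ193 the counts were 6 in H2009 cells, 6 in H441 cells, 2 in A549 cells and 6 in H460 cells. The combinations below this floor with δ193 in H441 and H460 were laminin-411 and laminin-421, since LAMA4 then exceeded it on 0 of 3 H441 arrays and 1 of 3 H460 arrays. This depended on the floor. With the 90th percentile in its place, all 8 combinations were above it in H441 and H460, with δ193 as with δscr, and A549 had 6 combinations with δ193 and 4 with δscr. With the 99th percentile, LAMA2 was below the floor on H2009 δscr replicate 3 (4.53 against 4.77). It was also below it on H460 δ193 replicate 1 (4.86 against 4.91) and replicate 3 (4.91 against 5.04). Laminin-211 and laminin-221 were then not above the floor in these groups. The grid holds RNA levels against a floor, and whether a trimer was assembled or secreted was not measured.

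**Figure D2:**
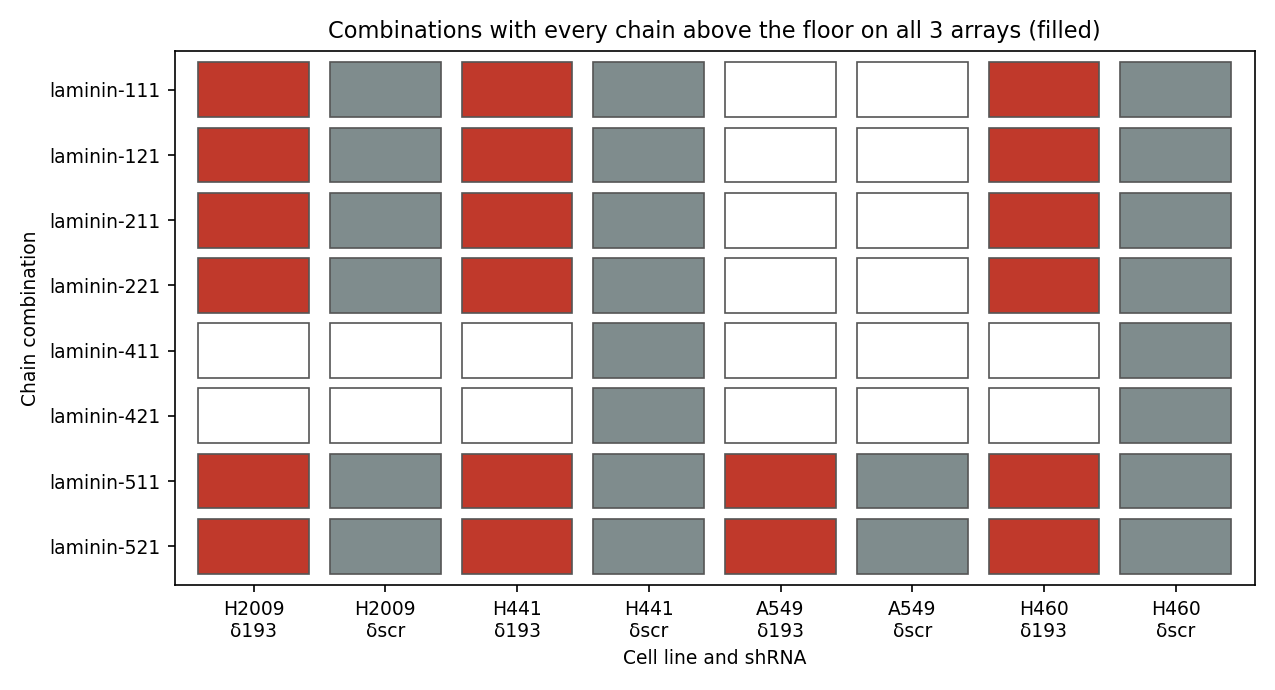
Chain combinations (rows, named by α, β and γ chain) in each line and shRNA group (columns, δ193 in red left of δscr in grey). A filled box means that all 3 chains exceeded the floor, the 95th percentile of the olfactory receptor genes, on all 3 arrays of the group. The rows of laminin-411 and laminin-421 are filled only for δscr cells of H441 and H460, and the A549 columns are filled only for laminin-511 and laminin-521.

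The chains called with depletion of PKCδ varied from line to line. In H441 cells 5 of 8 chains fell (LAMA4, LAMA5, LAMB2, LAMB3 and LAMC1) and none rose, where 7.22% of all genes were called lower and 7.09% higher. In H460 cells 3 of 8 fell (LAMA1, LAMA4 and LAMB2) and none rose, against 3.44% lower and 2.01% higher among all genes. In H2009 cells 2 of 8 rose (LAMA1 and LAMA2) and none fell, against 2.66% higher and 2.25% lower. In A549 cells 1 of 8 rose (LAMB1) and none fell, against 2.05% higher and 2.58% lower. Each of the 8 chains was called in at least 1 line, and 11 of the 32 tests were called. These totals are description only, because the share of all genes called in at least 1 line was not computed. The share of all genes whose groups did not overlap was not counted, so that a gap between groups is given below as description only.

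The median log2 fold change of the 8 chains was -0.12 in H2009 cells, -0.46 in H441 cells, -0.01 in A549 cells and -0.21 in H460 cells, while that of all genes was between 0 and 0.01. Their median absolute change was 0.25 in H2009 cells, 0.46 in H441 cells, 0.11 in A549 cells and 0.21 in H460 cells, against 0.11, 0.15, 0.10 and 0.11 for all genes in the same order of lines. In these bulk samples fewer cells of a type and less RNA per cell cannot be told apart. CDH1, the epithelial cadherin, also fell in H441, with means of 5.20 in δ193 and 6.41 in δscr cells (log2 fold change -1.20, adjusted p = 0.0012), as did KRT19 (-0.55). Of the 5 epithelial markers 2 fell in H441 and none was called higher. Of the 4 mesenchymal markers CDH2 (-0.43) and FN1 (-1.27) fell there. The other mesenchymal markers, VIM (0.22, adjusted p = 0.0337) and ZEB1 (0.30, 0.0161), were higher in H441 but under the fold minimum. The shares of all genes called are those given above for each line. In H460 KRT19 rose by 1.20 and CDH2 fell by 0.34, while ZEB1 rose by 0.60 in H2009 and CDH2 by 0.78 in A549. The part of these changes in the laminin results was not tested.

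**Figure D3:**
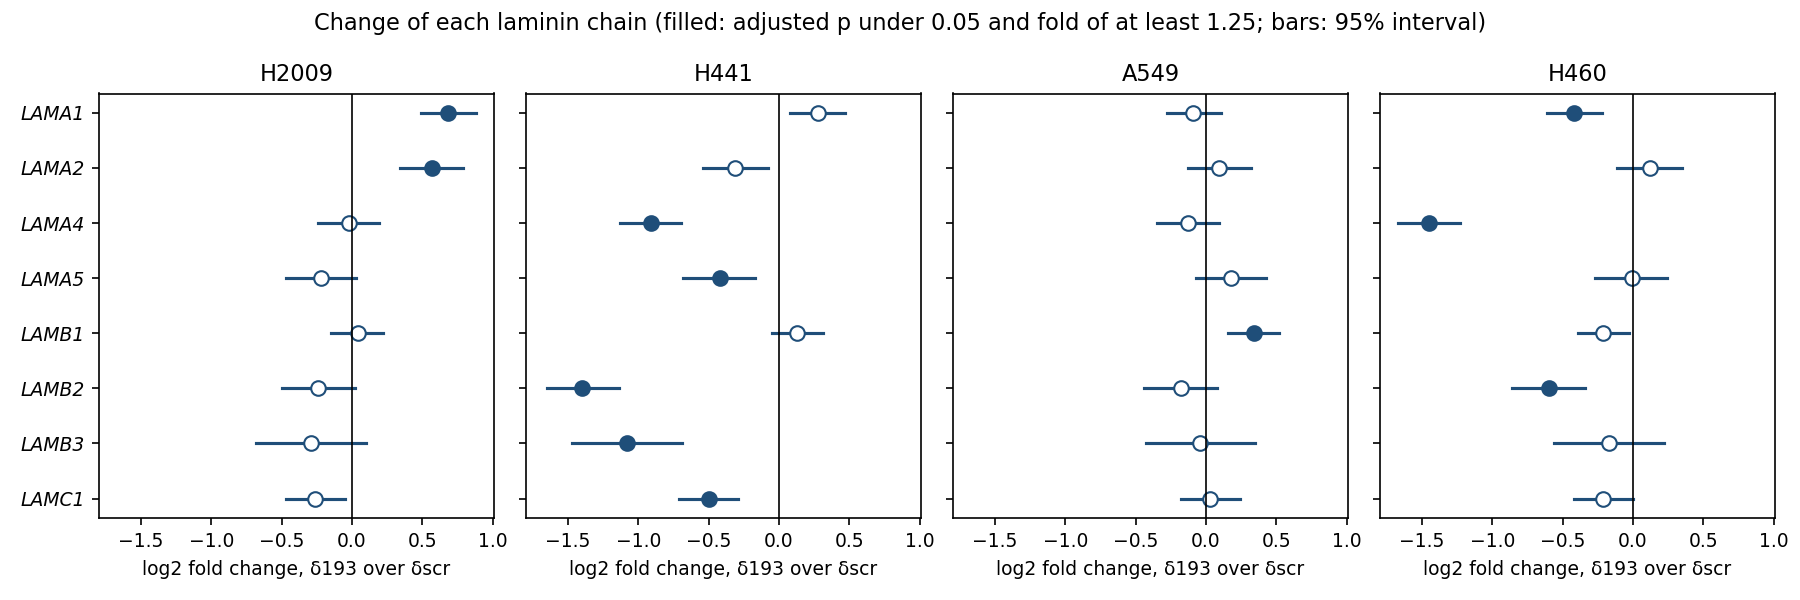
Log2 fold change, δ193 over δscr (horizontal axis), of each laminin chain (rows) in the 4 lines (panels), with 95% intervals. Filled points passed the test. The filled points lie left of 0 in H441 (5 chains) and H460 (3 chains) and right of 0 in H2009 (2 chains) and A549 (1 chain).

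Among the α chains, LAMA4 had the largest falls. In H460 it read 4.20, 3.95 and 4.17 with δ193, against 5.60, 5.36 and 5.70 with δscr. The groups lay more than 1 log2 unit apart, and the log2 fold change was -1.45 ± 0.11 (SE here and below for fold changes), or 2.73-fold lower (adjusted p = 3.21e-09). In H441 it read 4.27, 3.96 and 3.88 with δ193, against 4.90, 4.88 and 5.07 with δscr. All δ193 arrays lay below all δscr arrays there too, and LAMA4 fell by 0.91 (1.88-fold, adjusted p = 2.01e-06). The δ193 values lay at or near the floor in both lines, so that these folds may understate the change. LAMA4 was at the floor in both groups of H2009 (-0.02) and A549 (-0.13, adjusted p = 0.69), where a fall could not be measured. Its fall in H441 was called when that line was fitted alone (adjusted p = 0.0105), as was that in H460 (9.86e-05).

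LAMA1 was called in opposite directions in 2 lines. In H2009 it read 6.11, 6.22 and 6.09 with δ193, against 5.50, 5.51 and 5.36 with δscr. Every δ193 array was higher, and LAMA1 rose by 0.68 ± 0.09 (1.60-fold, adjusted p = 6.62e-05). In H460 it read 7.06, 6.84 and 6.86 with δ193, against 7.34, 7.33 and 7.34 with δscr, a fall of 0.42 (1.34-fold, adjusted p = 0.00728). The δscr arrays of H460 agreed within 0.01, and no δ193 array reached them. In H441 the δ193 arrays read 7.14, 7.20 and 6.97, against 6.80, 6.70 and 6.97 on the δscr arrays, a log2 fold change of 0.28 (adjusted p = 0.0449) that was under the fold minimum, and the groups met at 6.97. In A549, where LAMA1 was near the floor, the change was -0.09 (adjusted p = 0.799).

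LAMA2 rose in H2009, with 5.37, 5.29 and 5.30 on the δ193 arrays, against 4.67, 5.06 and 4.53 on the δscr arrays. The δscr arrays varied more (SD of 0.04 with δ193 and 0.28 with δscr) without reaching the δ193 arrays, and the log2 fold change was 0.57 ± 0.11 (1.48-fold, adjusted p = 0.00235). In H441 the groups did not overlap either, with 5.27, 5.21 and 5.40 with δ193, against 5.74, 5.54 and 5.53 with δscr, but the change of -0.31 was not called (adjusted p = 0.0536). Without H441 δ193 replicate 3 it was -0.37 (adjusted p = 0.0341). The changes in A549 (0.09) and H460 (0.12) had intervals that held 0.

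LAMA5 fell in H441 by 0.42 ± 0.12 (1.34-fold, adjusted p = 0.0181), with 8.39, 8.29 and 7.82 on the δ193 arrays, against 8.67, 8.46 and 8.65 on the δscr arrays. The groups did not overlap, but 1 δ193 array lay well below the others. Without that array, replicate 3, the change was -0.25 (adjusted p = 0.114), and the call was lost in 3 of 24 fits that left out 1 array, the others being those without H441 δscr replicate 1 (adjusted p = 0.0669) or 3 (0.0575). It was also lost with array weights (-0.24, adjusted p = 0.168) and with H441 fitted alone (0.246). In H2009 all 3 δ193 arrays were below the δscr arrays, at 6.87, 6.96 and 6.83 with δ193, against 7.03, 7.08 and 7.22 with δscr, and the change of -0.22 was not called (adjusted p = 0.4). A549 (0.18) and H460 (-0.01) had overlapping groups.

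Of the β chains, LAMB2 had the largest fall. In H441 it read 7.25, 7.30 and 6.65 with δ193, against 8.47, 8.54 and 8.38 with δscr. The groups were separated by more than 1 log2 unit, and LAMB2 fell by 1.40 ± 0.12 (2.63-fold, adjusted p = 5.19e-08). In H460 it read 6.78, 6.75 and 6.84 with δ193, against 7.35, 7.43 and 7.38 with δscr, a fall of 0.60 (1.51-fold, adjusted p = 0.00373) with all δ193 arrays lower. Both falls were called with the line fitted alone, at adjusted p of 0.003 in H441 and 0.000445 in H460. In H2009 the change of -0.24 was not called (adjusted p = 0.349), with 6.25, 6.27 and 6.19 on the δ193 arrays, against 6.62, 6.53 and 6.28 on the δscr arrays. In A549 the groups overlapped (-0.18, adjusted p = 0.59).

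LAMB3, the β chain of hemidesmosomal laminin, fell in H441 by 1.08 ± 0.19 (2.11-fold, adjusted p = 0.000297). The δ193 arrays there read 7.69, 8.12 and 6.78, against 8.73, 8.54 and 8.55 with δscr. They varied widely, with an SD of 0.68 for δ193 and 0.11 for δscr, and lay below every δscr array. With H441 fitted alone the fall was not called (adjusted p = 0.0706), and without 1 array it lay between -1.37 and -0.71, the smaller fall being that without H441 δ193 replicate 3. In the other lines the change was -0.29 in H2009 (adjusted p = 0.516), -0.04 in A549 (0.97) and -0.17 in H460 (0.739). In H2009 and H460 the δ193 arrays lay below the δscr arrays, and neither change was called.

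LAMB1, the β chain shared by most trimers, was the chain called in A549. It read 9.80, 9.92 and 9.84 with δ193, against 9.35, 9.59 and 9.61 with δscr, and rose by 0.34 ± 0.09 (1.27-fold, adjusted p = 0.0214). The groups did not overlap, and the lowest δscr array, replicate 1, lay apart from the other δscr arrays. Without it the change was 0.26 (adjusted p = 0.149), and the call was also lost without A549 δ193 replicate 2 (0.111) or 3 (0.0657) and with the line fitted alone (0.0805). The log2 fold change of LAMB1 was 0.04 in H2009, 0.13 in H441 and -0.21 in H460 (adjusted p = 0.209), and in H441, where 5 other chains fell, its groups overlapped.

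LAMC1, which encodes γ1, fell in H441, with 9.33, 9.44 and 9.12 on the δ193 arrays, against 9.89, 9.84 and 9.68 on the δscr arrays. No δ193 array reached a δscr array, and the log2 fold change was -0.50 ± 0.10 (1.42-fold, adjusted p = 0.00117). With H441 fitted alone the adjusted p was 0.0959. In H2009 (-0.26, adjusted p = 0.166) and H460 (-0.21, adjusted p = 0.298) neither change was called, though the groups did not overlap. In A549 the change was 0.03.

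H441 δ193 replicate 3 was the lowest of the H441 δ193 arrays for 7 of the 8 chains, all but LAMA2. Its PRKCD value was 6.00, against 5.69 and 4.68 on the other H441 δ193 arrays and 8.11, 7.71 and 7.76 on the H441 δscr arrays. Without any 1 array, between 4 and 6 chains were called in H441.

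Over the 4 lines, the mean change was called lower for 3 of 8 chains, against 2.14% of all genes. LAMA4 averaged -0.63 ± 0.05 (adjusted p = 1.32e-08), LAMB2 -0.60 ± 0.06 (2.97e-07) and LAMB3 -0.39 ± 0.09 (0.00522). The LAMA4 mean includes H2009 and A549, where LAMA4 was at the floor and a fall could not be measured. The LAMB3 mean passed below the fold minimum without H441 δ193 replicate 3 (-0.30). LAMC1 averaged -0.24 (adjusted p = 0.00193), under the fold minimum.

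Whether the change of a chain differed between lines was tested by the interaction of line and shRNA. Of the 48 chain and pair tests 16 were called. H2009 and H441 differed in 3 of 8 chains (7.12% of all genes), H2009 and A549 in 1 (3.51%), H2009 and H460 in 2 (4.21%), H441 and A549 in 5 (9.38%), H441 and H460 in 3 (4.83%) and A549 and H460 in 2 (4.63%). These tests share groups with each other and with the changes above. They include pairs of LAMA4 with H2009 or A549, where LAMA4 was at the floor. For LAMA1 the change in H2009 exceeded that in H460 by 1.10 ± 0.13 (adjusted p = 1.12e-05) and that in A549 by 0.77 (0.00127), and the change in H441 exceeded that in H460 by 0.70 (0.00349). The change of LAMA2 in H2009 exceeded that in H441 by 0.88 (adjusted p = 0.000835).

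For LAMA4, a fall could not be measured in H2009 or A549, where the chain was at the floor in both groups. Its change in H2009 was above that in H460 by 1.43 (adjusted p = 1.63e-06) and above that in H441 by 0.89 (0.000509). No difference in response can be read from these calls. LAMB2 was lowered most in H441, and all 3 pairs with that line were called. The change in H2009 minus that in H441 was 1.16 (adjusted p = 0.000205), H441 minus A549 was -1.22 (7.92e-05) and H441 minus H460 was -0.80 (0.0102). The remaining differences between H441 and A549 were -1.04 for LAMB3 (adjusted p = 0.0145, between -1.33 and -0.66 without 1 array, the smaller being that without H441 δ193 replicate 3), -0.61 for LAMA5 (0.0274) and -0.53 for LAMC1 (0.0203). The LAMA5 call was lost in 6 and the LAMC1 call in 4 of the 24 fits that left out 1 array. LAMB1 differed between A549 and H460 by 0.55 (adjusted p = 0.00894).

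The study set the K-ras dependent lines against the independent ones. The mean change in H2009 and H441 minus that in A549 and H460 was called for 2 of 8 chains, against 4.65% of all genes. The p-values of this class difference measure the spread between arrays and not that between lines of a class. The class difference was 0.73 ± 0.09 for LAMA1 (adjusted p = 4.53e-05), with changes of 0.68 in H2009 and 0.28 in H441, against -0.09 in A549 and -0.42 in H460. LAMA1 was near the floor in A549, where a fall could not be measured. For LAMB2 the class difference was -0.43 ± 0.12 (adjusted p = 0.0465), a call that was lost in 18 of the 24 fits that left out 1 array, and the changes of H2009 and A549 were -0.24 and -0.18. The other 6 chains had adjusted p from 0.0571 for LAMA5 (-0.41) to 0.957 for LAMB1 (0.02). H441 and H460, which are of different classes, shared the called falls of LAMA4 and LAMB2.

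Of the laminin genes outside the list, LAMB4 was at or below 3.18 as a group mean and was called in no line. LAMC3, which encodes γ3, rose in H2009, with 5.85, 5.83 and 5.88 on the δ193 arrays, against 5.54, 5.61 and 5.41 on the δscr arrays (0.33, adjusted p = 0.0254). The call was lost in 5 of 24 fits that left out 1 array. In A549 it fell by 0.39 (adjusted p = 0.00884), with 5.17, 5.35 and 5.29 with δ193, against 5.52, 5.78 and 5.67 with δscr. Its changes in H441 (0.11) and H460 (-0.21) were not called.

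The genes that laminins act through were taken from lists of receptors, basement membrane partners, hemidesmosome genes and laminin processing enzymes. Of the 12 laminin receptors 9 were measured, and in H441 7 of them fell and none rose, where 7.22% of all genes fell, with a list median of -0.57 against 0 for all genes. ITGA3, the integrin α3 subunit that binds laminins with α5, had means of 8.12 in δ193 and 9.28 in δscr cells of H441 (-1.16, adjusted p = 5.82e-05). ITGB4, the β4 subunit of the hemidesmosomal integrin, had means of 5.09 in δ193 and 6.08 in δscr cells of H441 (-0.99, adjusted p = 0.000393), and its partner ITGA6 fell by 0.73. SDC2, a cell surface heparan sulfate proteoglycan, fell in H441 by 0.95 (adjusted p = 1.19e-05) and in H460 by 1.15 (1.52e-06). No measured receptor was called in H2009 or A549, and without 1 array between 0 and 2 were called in H2009. Of the hemidesmosome list 5 of 6 genes were measured, and the 2 called, both in H441, were ITGA6 and ITGB4.

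Among the 16 basement membrane partners, 4 rose and 1 fell in H2009, 1 rose and 5 fell in H441, 1 fell in A549, and 1 rose and 1 fell in H460. Among all genes 2.66% rose and 2.25% fell in H2009 cells, 7.09% rose and 7.22% fell in H441 cells, 2.58% fell in A549 cells, and 2.01% rose and 3.44% fell in H460 cells. Without 1 array the partners called numbered 2 to 5 in H2009 cells, 4 to 7 in H441 cells, 0 to 1 in A549 cells and 1 to 3 in H460 cells. NID2, which encodes nidogen 2, a linker between laminin and type IV collagen, rose by 0.59 in H2009, 0.83 in H441 and 1.01 in H460 (adjusted p = 0.0226, 0.000492 and 0.000125). In H441 its paralog NID1 fell by 0.64 (adjusted p = 0.00148), so that the nidogens changed in opposite directions there. AGRN, a proteoglycan that binds the laminin coiled coil, fell by 0.49 in H2009, 0.76 in H441 and 0.34 in A549. COL4A1 (0.40) and COL4A2 (0.46), which form the main type IV collagen, rose in H2009, COL4A5 fell by 0.79 in H441, and HSPG2, which encodes perlecan, fell by 0.37 in H460.

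Of the 9 processing enzymes, 1 rose and 1 fell in H2009 cells, 3 fell in H441 cells, 1 in A549 cells and 2 in H460 cells, against the same shares of all genes. Without 1 array the enzymes called numbered 1 to 2 in H2009 cells, 2 to 3 in H441 cells, 1 in each A549 fit and 0 to 3 in H460 cells. MMP2, a gelatinase that also cleaves laminin, fell by 1.08 in H441 (adjusted p = 5.6e-05) and by 0.60 in H460 (0.026). TLL1, a metalloproteinase of the BMP1 family, rose by 0.54 in H2009 and fell by 0.49 in H441 and 0.35 in H460, and BMP1 itself fell by 0.40 in H441. PLAT, a plasminogen activator, fell by 0.49 in H2009 and 0.76 in A549.

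**Figure D4:**
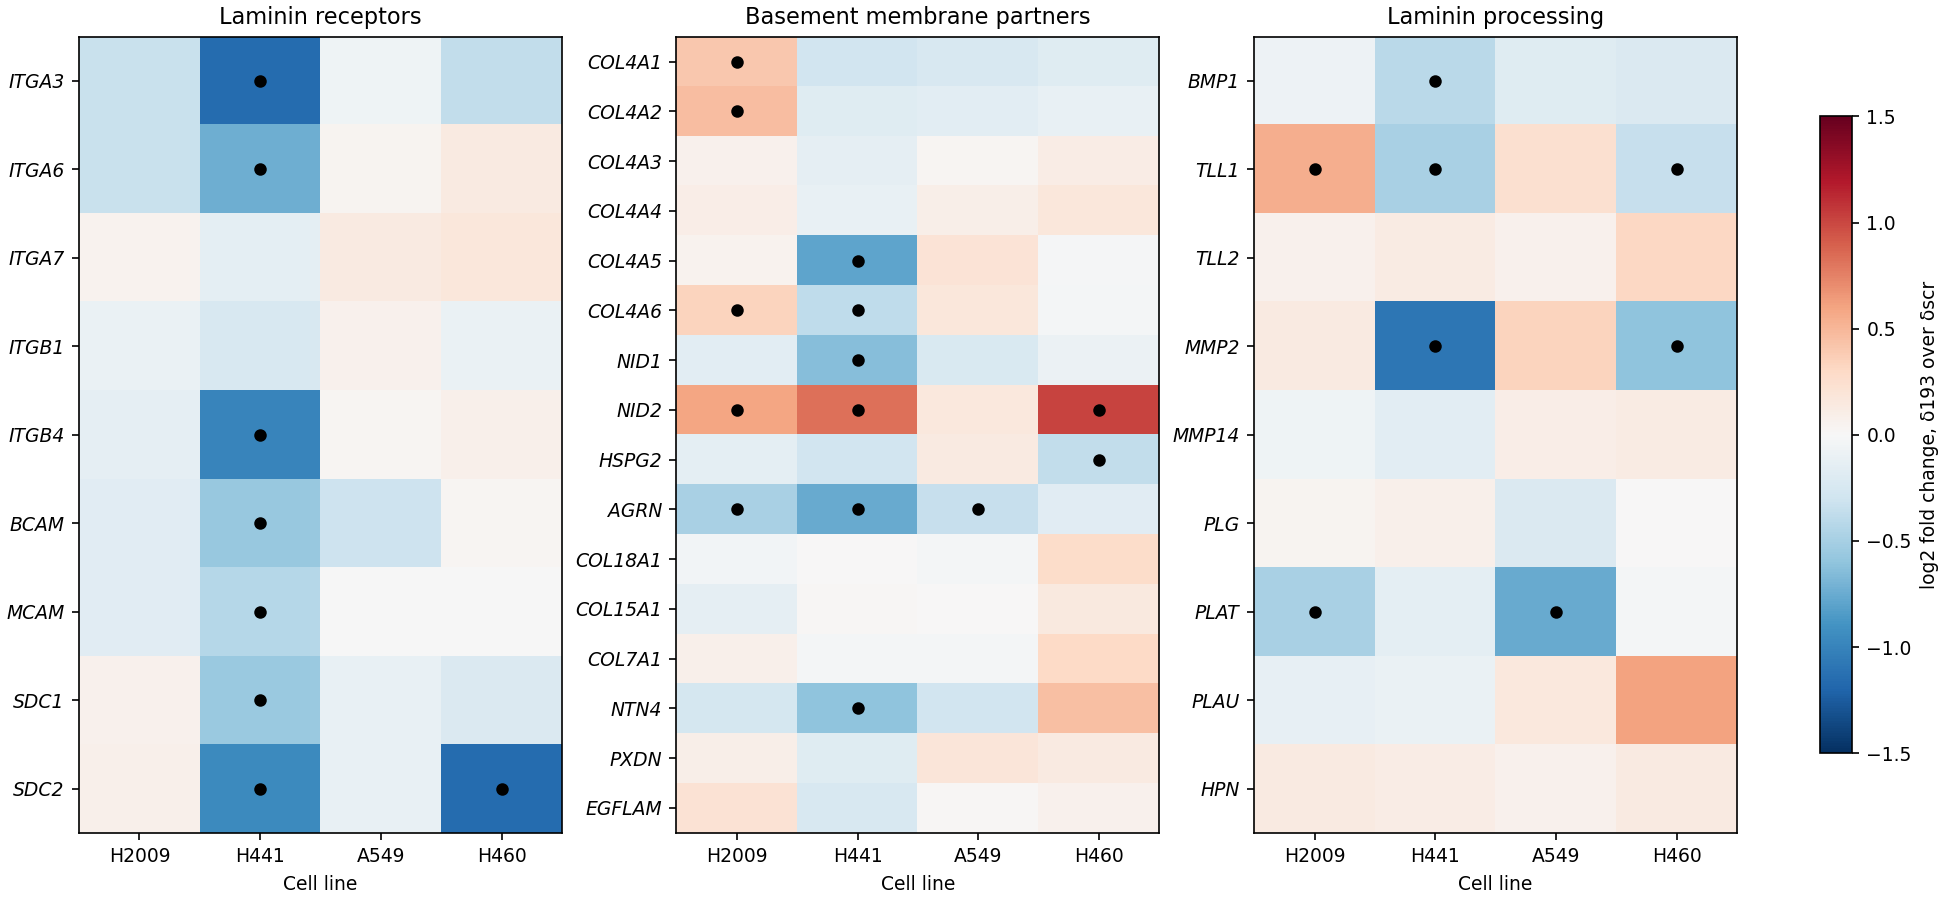
Log2 fold change, δ193 over δscr (color), of laminin receptors, basement membrane partners and processing enzymes (rows) in the 4 lines (columns). Black dots mark genes that passed the test. In the receptor panel 7 of 9 genes are blue and dotted in H441, and NID2 is red and dotted in H2009, H441 and H460.

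Across the 24 arrays, which share lines and shRNAs, the chains varied together to different degrees. Pearson's r was highest for LAMA1 with LAMC1 and for LAMA5 with LAMB2 (0.86 each) and lowest for LAMA1 with LAMB2 and LAMA2 with LAMB2 (0.20 each). For each chain whose group means spanned at least 1 log2 unit, the genes most like it over the same arrays were MAGEA1 (r = 0.984) and TOR3A (0.983) for LAMA1, GBE1 (0.944) and RAB27A (0.940) for LAMA2, and SELENOP (0.932) and RXRA (0.928) for LAMA4. They were ACADVL (0.952) and UROS (0.941) for LAMA5, TFPI (0.965) and MSLN (0.959) for LAMB2, QSOX1 (0.964) and ABCA1 (0.960) for LAMB3, and ICAM2 and ERAP1 (0.963 each) for LAMC1. The arrays of one line share its level, and the correlations describe these arrays only.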

How the data were processed

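Total RNA of 24 samples was hybridized to Affymetrix human gene arrays. The deposited log2 values were made by the authors with Affymetrix Power Tools and the RMA method, which corrects background, equalizes the arrays' distributions and combines the probes of each transcript cluster; program versions are not given in the sources read. RMA shrinks differences near background, and the number of arrays limits the precision. Of 33252 clusters, 19460 carried 1 gene symbol (19429 updated through the Entrez ID), 1754 several and 12038 none. The 18417 genes took the cluster with the highest mean. Array medians lay between 4.78 and 4.91, and no array was a copy of another (r within groups up to 0.9962).

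Groups came from the sample titles. Tests were run with limma 3.58.1 (R 4.3.3), with 1 coefficient per group, a spread shared by all 24 arrays and Benjamini-Hochberg adjustment over 18417 genes; a gene was called where the adjusted p was below 0.05 and the change reached 1.25-fold, the methods' minimum. The code was tested on simulated data. Genes named were PRKCD, the listed chains, other laminin genes, the 2 genes most correlated with each variable chain and up to 3 called members of each list in each line. COL4A1 and NID1 were named in addition, beside COL4A2 and NID2, as were cell type markers. Members, lists and tests were chosen with earlier results of these data known. Alternatives were other thresholds, normalizations and spreads, the methods' t-test, each line alone, fits without 1 array or without H441, the replicate number as a block and other floors.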

Additional observations from a re-analysis of the deposited data

Results flagged for a closer look

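The results below were singled out because the change with δ193 differed between lines or classes by the interaction test of limma (Benjamini-Hochberg over all genes). No explanation was tested. The p-values of class differences measure the spread between arrays and not that between lines of a class. No test for outlying arrays was run on the groups of 3.

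LAMA1, the α1 chain, had 4 such differences. Its change in H2009 was above that in A549 by 0.77 (adjusted p = 0.00127) and above that in H460 by 1.10 (1.12e-05), its change in H441 was above that in H460 by 0.70 (0.00349), and the class difference, K-ras dependent minus independent, was 0.73 (4.53e-05). Every δ193 array was above every δscr array in H2009 and below it in H460. In A549 LAMA1 was near the floor, so that a fall could not be measured there. For LAMA2, the α2 chain, the change in H2009 was above that in H441 by 0.88 (adjusted p = 0.000835).

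LAMA4, the α4 chain, had 5 differences. The change in H2009 minus that in H441 was 0.89 (adjusted p = 0.000509), H2009 minus H460 was 1.43 (1.63e-06), H441 minus A549 was -0.79 (0.00129), H441 minus H460 was 0.54 (0.0375) and A549 minus H460 was 1.32 (3.92e-06). LAMA4 was at the floor in both groups of H2009 and A549, where a fall could not be measured. No difference in response can be read from the pairs of LAMA4 with these lines. LAMA4 was also at or near the floor with δ193 in H441 and H460, whose δscr means differed by -0.60. No difference in response can thus be read from the 0.54 either, and this call was lost in 7 of 24 fits that left out 1 array. LAMA5 differed by -0.61 between H441 and A549 (adjusted p = 0.0274).

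Among the β chains, LAMB1 differed by 0.55 between A549 and H460 (adjusted p = 0.00894), and LAMB3 by -1.04 between H441 and A549 (0.0145), with -0.66 without H441 δ193 replicate 3. LAMB2 differed by 1.16 between H2009 and H441 (adjusted p = 0.000205), by -1.22 between H441 and A549 (7.92e-05), by -0.80 between H441 and H460 (0.0102) and by -0.43 between the classes (0.0465). The changes of LAMB2 behind the class difference were -0.24 in H2009 and -1.40 in H441, against -0.18 in A549 and -0.60 in H460.

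Among the γ chains, LAMC1 differed by -0.53 between H441 and A549 (adjusted p = 0.0203). LAMC3, which was not on the list, differed by 0.72 between H2009 and A549 (adjusted p = 0.00124), by 0.55 between H2009 and H460 (0.0104), by 0.49 between H441 and A549 (0.0124) and by 0.52 between the classes (0.000974).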

How the results depend on the processing

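With δ193, 2 chains were called in H2009 cells, 5 in H441 cells, 1 in A549 cells and 3 in H460 cells. By the methods' t-test the count in H441 was 3 unadjusted, and after Benjamini-Hochberg adjustment it was 1 in H2009, 0 in H441 and 0 in A549. With an adjusted p under 0.01 the count was 0 in A549 and 1 for the class difference, and LAMA5 was no longer called in H441. With a fold of at least 1.5 the count was 1 in H2009, 3 in H441, 0 in A549 and 1 for the class difference. LAMA1 in H460 and the mean change of LAMB3 also missed that fold. With each line fitted alone the count was 2 in H441 and 0 in A549, and with array weights it was 0 in A549. With only genes whose mean was above the median it was 1 in H2009, since LAMA2 was then not tested. LAMA4, called in H441, in H460 and in the mean change, was not tested then either. Without 1 array, counts ranged over 2 to 2 in H2009, 4 to 6 in H441, 0 to 1 in A549, 3 to 3 in H460, 1 to 4 for the class difference, 2 to 3 for the mean change, 38 to 41 for baseline pairs, 13 to 19 for differences of change and 24 to 24 for chain combinations.

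Directions that reversed belonged to differences that were not called. With quantile normalization repeated these were LAMA2, change in A549 minus H460 (0.05), LAMA5 in H460 (0.03), LAMA5 at baseline, A549 minus H460 (0.08), and the class difference of LAMB1 (-0.01). With array weights they were LAMA2 at baseline, H2009 minus H460 (0.01), the class difference of LAMA2 (-0.01), LAMA5 at baseline, A549 minus H460 (0.05), LAMB3 in A549 (0.02) and PRKCD, change in H2009 minus H441 (-0.03). Without 1 array the ranges that crossed 0 were -0.19 to 0.08 for LAMA2 at baseline (H2009 minus H460), -0.08 to 0.05 for LAMA2 (change in A549 minus H460), -0.04 to 0.10 for LAMA2 (class), -0.07 to 0.01 for LAMA4 at baseline (H2009 minus A549), -0.06 to 0.04 for LAMA4 in H2009, -0.12 to 0.10 for LAMA5 at baseline (A549 minus H460), -0.05 to 0.02 for LAMA5 in H460, -0.03 to 0.06 for LAMB1 (class), -0.16 to 0.01 for LAMB2 (change in H2009 minus A549), -0.10 to 0.07 for LAMB3 in A549, -0.12 to 0.03 for LAMC1 (change in H2009 minus H460), -0.03 to 0.11 for LAMC1 in A549, -0.24 to 0.43 for PRKCD (change in H2009 minus H441) and -0.65 to 0.02 for PRKCD (change in H441 minus H460). The cause was not tested.

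The correlation of same-numbered deviations lay between -0.09 and 0.28. It was 0.28, 0.16 and 0.10 in H2009 and at most 0.10 in the other lines. Pairing by replicate number was not tested and is not excluded by these values. With the replicate number as a block, the chains called were again 2, 5, 1 and 3 in H2009, H441, A549 and H460, the differences of change called were 17, against 16 without the block, and calls over all genes were 904 in H2009 cells, 2755 in H441 cells, 834 in A549 cells and 1030 in H460 cells, against 904, 2636, 852 and 1003 without it. The block ended the call of LAMC3 in H2009 (adjusted p = 0.059).

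With each line alone and with the block no baseline value was computed. With each line alone and with the t-test no difference of change was computed, and without H441 neither the 6 pairs nor the class difference. Signal over background limits LAMA4 in all lines and LAMA1 and LAMA2 in A549. Each group had 3 arrays and 1 shRNA, protein was not measured, and the shared spread is smaller than that of H441 arrays.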
